A study of Mus musculus with 16 samples.

Results

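RNA polymerase II (Pol II) and Mediator were followed at the level of RNA in CD8+ T cells of the mouse after Tardbp, the gene of the RNA-binding protein TDP-43, had been targeted. The members are 43 protein-coding genes, 13 of Pol II and 30 of Mediator, out of 55536 annotated genes. They were chosen by symbol alone (Polr2 and 1 letter, or Med and a number) in the GENCODE M21 annotation. No measured value entered the rule, but the family was proposed with the results of the same Control gRNA and Tardbp gRNA libraries known, so counts of changed members describe them and nothing is read from them about the family. All 43 members passed the filter on low counts that left 16650 genes for testing.

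Both groups were CD8+ OT-I T cells of the OT-1 Tg C57BL/6J strain, whose transgenic T cell receptor recognizes SIINFEKL, a peptide of ovalbumin. The cells had been electroporated in pools with Cas9, an RNA-guided nuclease, together with a scrambled guide (Control gRNA) or one that targets Tardbp (Tardbp gRNA). After transfer, the recipient C57BL/6J mice were given SIINFEKL and agonist antibodies against OX40 (CD134) and 4-1BB (CD137). CD8+ CD45.1+CD45.2+ cells were sorted from spleen and lymph nodes at 4 days by the labels, although the study's methods state less time. There were 8 libraries per guide, 1 per recipient mouse, and the cells were pools of electroporated cells rather than a clone.

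The libraries held 73649630 to 93893357 estimated counts in Control gRNA against 56016533 to 94801105 in Tardbp gRNA. This was 1.89 to 2.02 estimated counts per recorded read pair, so that a pair gave about 2 counts. Values are given as CPM, counts scaled to the same library total after TMM adjustment, and differences as the log2 fold change of Tardbp gRNA over Control gRNA from edgeR, with a gene called at an adjusted p under 0.05 over all tested genes. Tardbp itself lay at 172 to 207 CPM (median 198) in Control gRNA and 110 to 147 CPM (median 136) in Tardbp gRNA, without overlap (log2 fold change -0.51, SE 0.06, edgeR adjusted p = 8.07e-07; exact permutation test of log2 CPM, two-sided, p = 0.000155, the smallest that 8 against 8 can give). The 8 CD8 T cell markers summed to 4031 to 4846 CPM in Control gRNA and 5535 to 6928 CPM in Tardbp gRNA, without overlap, with 7 of 8 called higher and 1 lower. Red cell precursor markers summed to 0.437 to 16.6 CPM and 9.22 to 185 CPM, with 4 of 6 called higher, and myeloid markers to 24.4 to 43.6 CPM and 32.6 to 94.5 CPM, with 2 of 7 called higher and Cd14 under 1 CPM. B cell markers summed to 11.7 to 26.0 CPM and 27.2 to 42.6 CPM, with 1 of 7 called higher and Pax5 under 1 CPM. Of the CD4 T cell markers 0 of 4 were called and Cd4 and Foxp3 were under 1 CPM, at sums of 4.20 to 20.4 CPM and 6.27 to 15.98 CPM, and of the NK cell markers 0 of 2 were called, at sums of 0.45 to 2.96 CPM and 0.982 to 3.97 CPM. The RNA concentration recorded before dilution, without a unit, was 34.9 to 197.1 for Control gRNA libraries and 10.1 to 24 for Tardbp gRNA libraries, so that concentration and guide cannot be told apart. The deposited sample sheet gives sex as a letter, 3 M and 5 F in Control gRNA and 5 M and 3 F in Tardbp gRNA. The part of these other cells and of RNA amount in the results below was not tested.

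Pol II transcribes protein-coding genes. Its largest subunits, encoded by Polr2a and Polr2b, form the 2 sides of the active-site cleft, and the smaller subunits hold them together, form a stalk or are shared with Pol I and Pol III. Mediator is a large complex that carries signals from DNA-bound activators to Pol II at promoters. Its head and middle touch the polymerase, its tail meets activators, Med14 runs through it as a scaffold, and a separable kinase module that holds Med12 and Med13 controls its contact with the polymerase.

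Promoter window sequence is shown for 5 of the 7 members whose groups did not overlap in CPM, since these carry the clearest differences. Each is the longest run of the RefSeq promoter window (GRCm38.p6, 250 bases before to 50 bases after the start) that lies outside every annotated exon, 5′ to 3′ on the gene's strand. Capitals mark 5 motifs on either strand. The ETS core was searched as CCGGAA and the GC box as GGGCGG. The CCAAT box was searched by the letters of its name, the E-box as CACGTG and the TATA box as TATAAA. Med27, at chr2:29346560-29346818 on the plus strand, and Med17, at chr9:15279932-15280156 on the minus strand, and Med1, at chr11:98192956-98193058 on the minus strand, were lower in Tardbp gRNA. Med10, at chr13:69802120-69802394 on the plus strand, and Med28, at chr5:45519979-45520228 on the plus strand, were higher. The Med1 run lies inside the gene as GENCODE annotates it, in an intron, and the other 4 lie just before the gene start. Med10 and Med27 each have a further window inside the gene, not shown, of which the run of Med10 holds a GC box and that of Med27 none of the 5 motifs. The Med10 run shown holds none either. In Med28 the TATA box and the reversed CCAAT share 1 base.
Med27: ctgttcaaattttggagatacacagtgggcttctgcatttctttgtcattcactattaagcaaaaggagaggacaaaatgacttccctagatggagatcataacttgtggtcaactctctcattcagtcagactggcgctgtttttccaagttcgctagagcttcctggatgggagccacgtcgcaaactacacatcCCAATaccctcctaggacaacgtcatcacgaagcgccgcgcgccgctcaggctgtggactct
Med17: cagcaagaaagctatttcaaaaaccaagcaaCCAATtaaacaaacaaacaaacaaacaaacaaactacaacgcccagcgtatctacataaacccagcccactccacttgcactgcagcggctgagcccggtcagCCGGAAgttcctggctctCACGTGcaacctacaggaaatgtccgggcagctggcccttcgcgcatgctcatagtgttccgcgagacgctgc
Med1: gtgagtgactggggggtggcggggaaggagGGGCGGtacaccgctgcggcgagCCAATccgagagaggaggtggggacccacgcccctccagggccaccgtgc
Med10: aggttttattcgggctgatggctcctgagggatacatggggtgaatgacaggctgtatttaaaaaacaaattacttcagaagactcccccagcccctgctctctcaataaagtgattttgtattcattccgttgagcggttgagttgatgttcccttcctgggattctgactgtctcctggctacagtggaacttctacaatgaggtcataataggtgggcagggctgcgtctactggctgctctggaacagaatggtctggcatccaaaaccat
Med28: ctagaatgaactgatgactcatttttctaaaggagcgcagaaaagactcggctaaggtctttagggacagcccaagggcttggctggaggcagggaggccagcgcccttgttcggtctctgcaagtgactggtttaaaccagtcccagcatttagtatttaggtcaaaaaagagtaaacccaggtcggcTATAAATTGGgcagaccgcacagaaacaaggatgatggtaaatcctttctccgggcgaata

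Promoter windows were found for 36 of the 43 members. A member counted if any of its windows held the motif, whereas the percentages over all are of single windows, so the units differ. The GC box stood in 25 of 36 members, with 35.7% of all 32851 promoter windows holding it, and the ETS core in 18 of 36, with 14.9% of all windows. The CCAAT box stood in 14 of 36 members (37.4% of all windows), the TATA box in 5 (13.6%) and the E-box in 4 (7.15%). Among members called lower and with a window, 6 of 9 held a GC box and 3 of 9 an ETS core, and among those called higher 6 of 9 and 4 of 9. The letters therefore did not part the members that rose from those that fell in these counts, which are a description of windows and say nothing of binding.

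The members moved in both directions. In Tardbp gRNA, 11 of 43 were lower, 13 were higher and 19 were not called, with a median log2 fold change of -0.02 against 0.05 over all tested genes. Over all genes 23.3% were called lower and 23.5% higher, 46.7% in all, and 24 of the 43 members were called. Groups did not overlap for 7 members, 5 lower and 2 higher, while 16.9% of all tested genes showed no overlap. With RNA concentration as a covariate 11 members were called, 7 lower and 4 higher, and 16.2% of all tested genes were called in that fit, 10.1% lower and 6.07% higher. This fit lost the calls of Med1, Med7, Med8, Med12, Med13, Med16, Med18, Med30, Med31, Polr2i, Polr2j, Polr2k and Polr2l. In replicates 1 to 3 alone 3 members were called, all lower, and 10.1% of all tested genes, 6.76% lower and 3.3% higher. With the sex letter as a covariate 20 members were called, 9 lower and 11 higher, and 44.2% of all tested genes, 22.4% lower and 21.8% higher. The calls lost in that fit were those of Med7, Med8, Med12 and Med18.

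**Figure D1:**
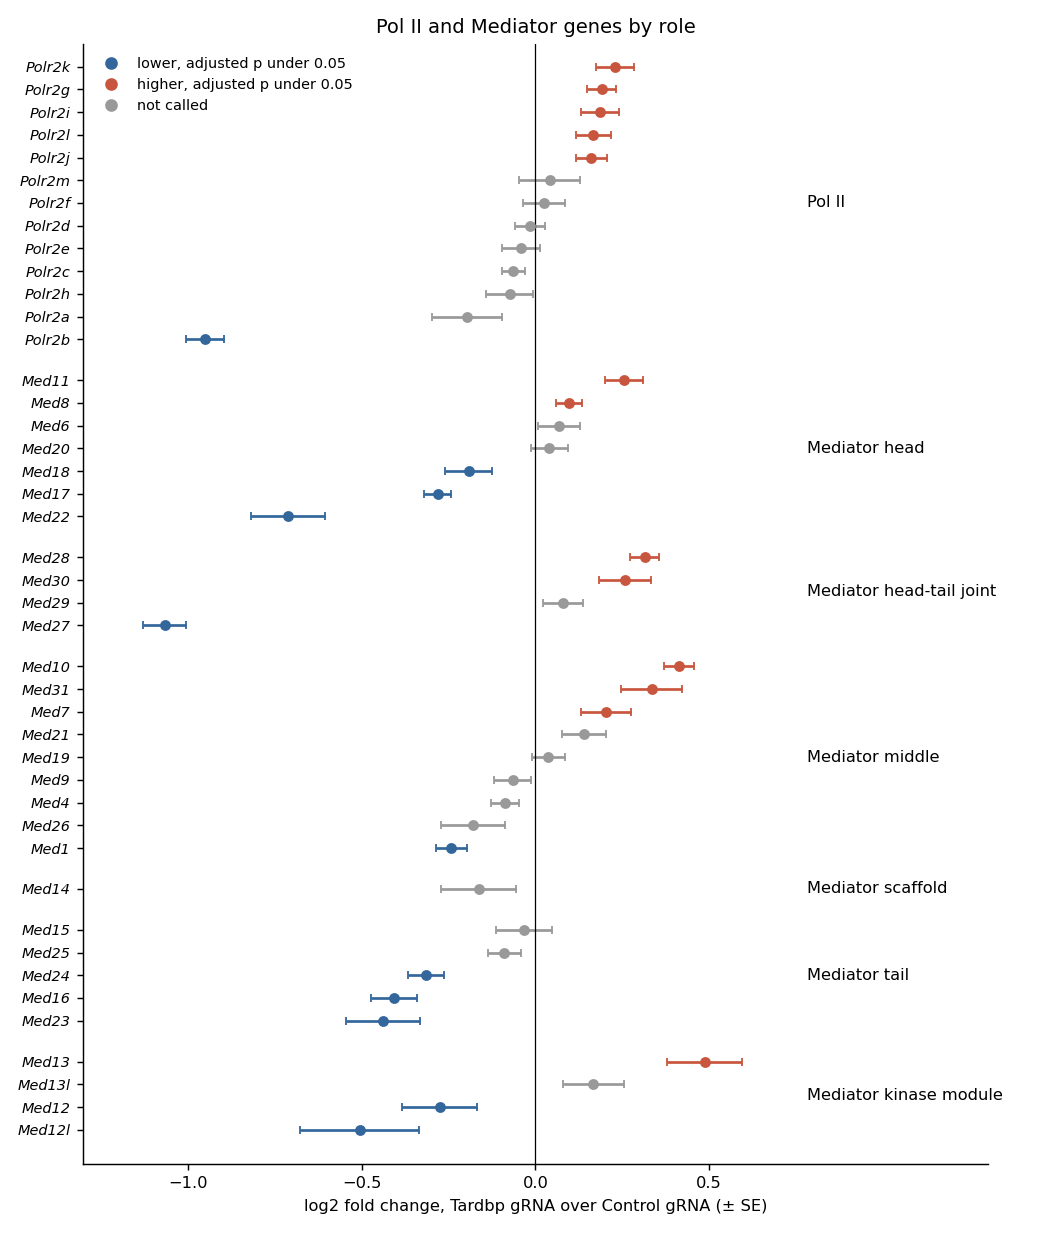
The log2 fold change (x axis, Tardbp gRNA over Control gRNA, ± SE) of the 43 members, grouped by role on the y axis, with blue for called lower, red for called higher and grey for not called. Polr2b at -0.95 and Med27 at -1.07 lie apart from the other subunits of their groups, and all 5 tail subunits lie below 0.

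Med27, Polr2b, Med22 and Med12l were the 4 members called with a log2 fold change over 0.5 in size, and all of them fell. Over all tested genes 8.39% were called and lower by that much and 11.8% higher. Summed over the 13 Pol II genes the level was 1524 to 1708 CPM (median 1608) in Control gRNA and 1472 to 1586 CPM (median 1536) in Tardbp gRNA. Summed over the 30 Mediator genes it was 1555 to 1617 CPM (median 1583) and 1542 to 1585 CPM (median 1566.5). The ranges of both sums overlapped.

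Polr2b, the second-largest Pol II subunit, was the member of the polymerase that fell. It lay at 251 to 289 CPM (median 263) in Control gRNA and 122.9 to 154 CPM (median 133) in Tardbp gRNA. Every Tardbp gRNA library was below every Control gRNA library, with a log2 fold change of -0.95 (edgeR, SE 0.05, adjusted p = 2.35e-09), or 1.93-fold lower. The gene lies at chr5:77310147-77349324 on the plus strand.

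Polr2a, the largest subunit, which carries the C-terminal repeat domain that is phosphorylated during transcription, was not called. It lay at 72.4 to 105 CPM (median 88.8) in Control gRNA and 52.1 to 88.7 CPM (median 82.4) in Tardbp gRNA (log2 fold change -0.20, SE 0.10, edgeR adjusted p = 0.121). The groups overlapped, and the lowest values, 52.1 and 63.1 CPM, were those of Tardbp gRNA replicates 3 and 4. Of 26 alternative fits 25 did not call Polr2a. The 1 that did left out Control gRNA replicate 8, the lowest library of its group (log2 fold change -0.26, edgeR adjusted p = 0.0457).

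The platform subunits Polr2j, Polr2k and Polr2l rose slightly, and Polr2c, the other platform subunit, was not called (log2 fold change -0.06, edgeR adjusted p = 0.129). Polr2j lay at 103 to 127 CPM in Control gRNA and 118 to 134 CPM in Tardbp gRNA, a log2 fold change of 0.16 (edgeR, SE 0.05, adjusted p = 0.00676). Polr2k, which is shared with Pol I and Pol III, rose by 0.23 on the log2 scale (SE 0.05, edgeR adjusted p = 0.00211), and Polr2l, shared as well, by 0.17 (SE 0.05, edgeR adjusted p = 0.0117). All 3 calls were lost with RNA concentration as a covariate and in replicates 1 to 3 alone. That of Polr2l was lost in 7 of 26 alternative fits, also without Control gRNA replicate 4 or without any of Tardbp gRNA replicates 4, 5, 6 and 8. Of the stalk, Polr2g rose by 0.19 (SE 0.04, edgeR adjusted p = 0.00106) and Polr2d was not called (-0.02, SE 0.04, edgeR adjusted p = 0.796). Polr2i, a small subunit of the polymerase jaw, rose by 0.19 (SE 0.06, edgeR adjusted p = 0.00994), a call lost in 3 of 26 alternative fits, including that without Tardbp gRNA replicate 4. The other shared subunits Polr2e, Polr2f and Polr2h, and Polr2m, a factor that associates with the polymerase, had log2 fold changes from -0.07 to 0.04 and were not called. All 5 subunits that rose had overlapping groups, so single libraries did not separate the groups. Control gRNA replicate 1 was the highest control library for all 5 of them.

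Per length, the Pol II genes were not equal in level. TPM, counts divided by transcript length and scaled to a fixed sum per library, was highest in Control gRNA for Polr2j at 285 ± 15.8 (SD, n = 8) and lowest for Polr2a at 21.9 ± 2.85. Polr2b lay between them at 106 ± 7.54 in Control gRNA and 52.7 ± 5.63 in Tardbp gRNA. The ratio of Polr2b to Polr2a TPM was 4.36 to 5.62 in Control gRNA against 2.56 to 3.88 in Tardbp gRNA, and that of Polr2b to Polr2c TPM was 0.61 to 0.741 and 0.314 to 0.422. Neither pair of ranges overlapped, whereas the ratio of Polr2a to Polr2c TPM, at 0.113 to 0.166 and 0.0866 to 0.153, did.

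**Figure D2:**
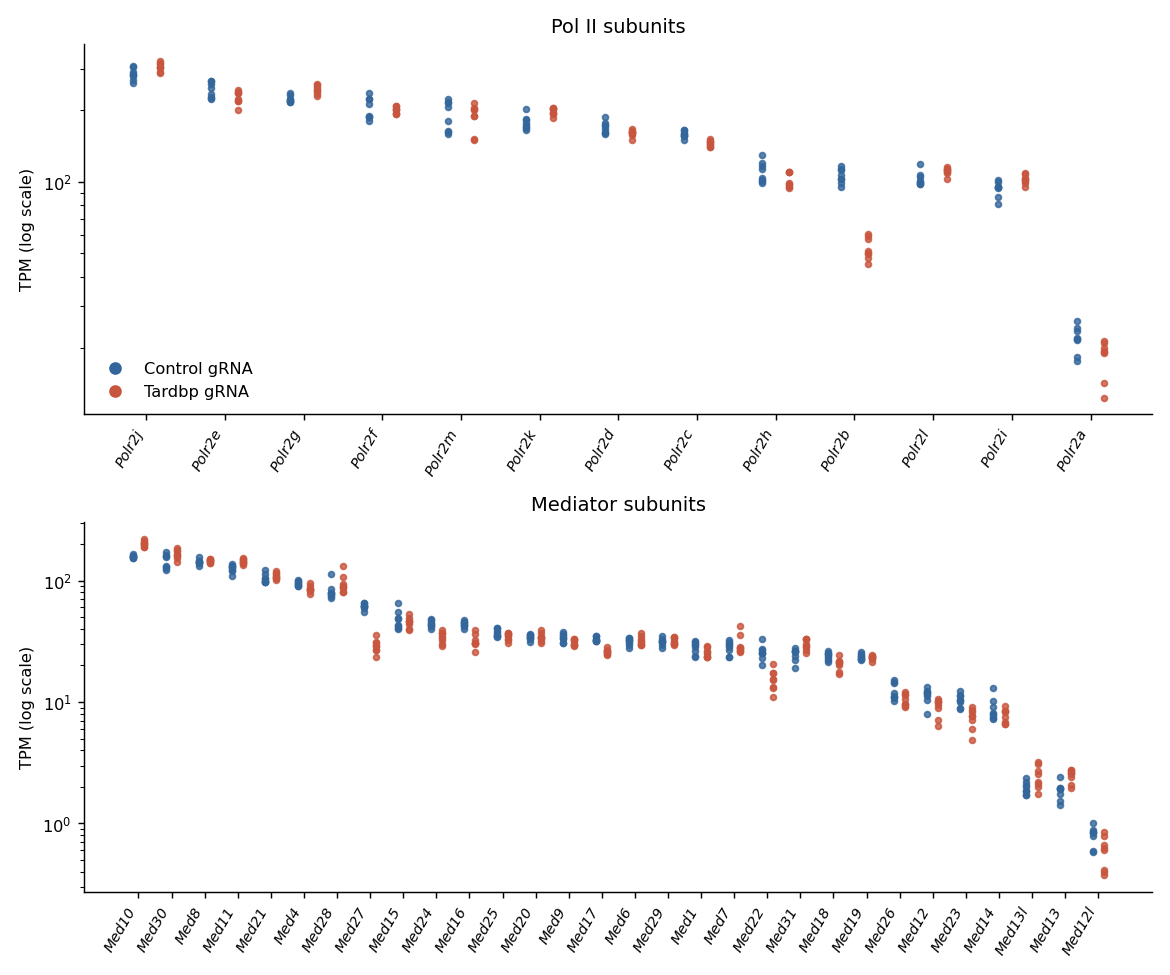
TPM (y axis, log scale) of each Pol II gene (top) and Mediator gene (bottom) in order of the Control gRNA mean, with 1 point per library, blue for Control gRNA and red for Tardbp gRNA. Polr2b and Med27 show the 2 groups as separate bands, and Polr2a at 21.9 TPM and Med12l at 0.801 TPM are the lowest genes of their panels in Control gRNA.

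The other polymerases were compared by the same subunits. Polr1b and Polr3b, the second-largest subunits of Pol I and Pol III, fell by 0.99 (SE 0.09, edgeR adjusted p = 2.05e-07) and 0.72 (SE 0.09, edgeR adjusted p = 2.59e-06) on the log2 scale, without overlap between groups. The largest subunits Polr1a and Polr3a fell as well, by 0.90 (SE 0.07, edgeR adjusted p = 2.88e-08) and 0.49 (SE 0.09, edgeR adjusted p = 0.000127), again without overlap. Of the subunits of Pol I with a symbol of Polr1 and a letter, 3 of 5 fell and 0 rose, and of those of Pol III 8 of 9 fell and 0 rose. Of all tested genes 23.3% were called lower and 23.5% higher. The median log2 fold change was -0.21 for Pol I, -0.24 for Pol III, 0.02 for the 13 Pol II genes and 0.05 over all tested genes. These sets are unlike, since the 13 include Polr2m and 5 subunits shared with Pol I and Pol III. The Pol I and Pol III sets leave the shared 5 out. For the 7 subunits of Pol II alone the median was -0.02, with 1 called lower and 3 higher. Among the 6 largest and second-largest subunits, Polr2a was the one not called. The differences between the polymerases were not tested.

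**Figure D3:**
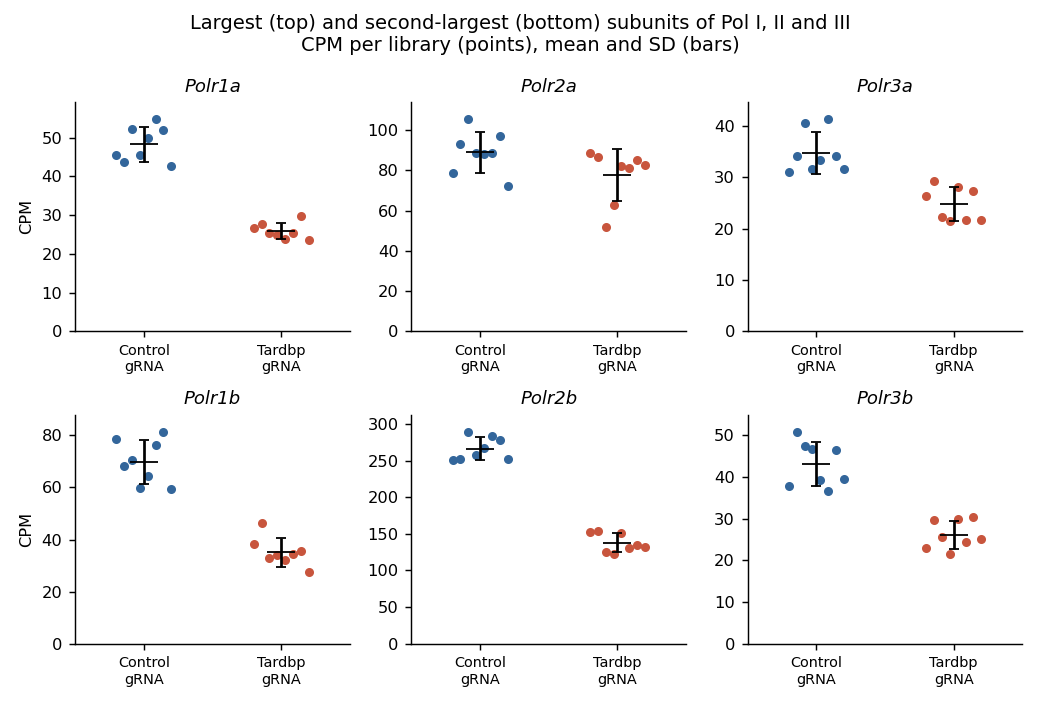
CPM per library (points) with mean and SD (bars) of the largest subunits (top row) and second-largest subunits (bottom row) of Pol I, Pol II and Pol III, from left to right. The groups are separate in 5 panels and overlap for Polr2a, at 72.4 to 105 CPM and 52.1 to 88.7 CPM.

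Of the Mediator head, which contacts the polymerase, 3 of 7 members fell and 2 rose. The shares over all tested genes were 23.3% called lower and 23.5% higher. Med22 lay at 41.9 to 67.5 CPM (median 52.3) in Control gRNA and 24.3 to 42.8 CPM (median 32.4) in Tardbp gRNA. The groups met only where Control gRNA replicate 8 (41.9 CPM) lay below Tardbp gRNA replicate 2 (42.8 CPM), and the log2 fold change was -0.71 (SE 0.11, edgeR adjusted p = 2.38e-05). Med17, the central head subunit, lay at 75.2 to 83.2 CPM (median 77.5) and 61.9 to 69.5 CPM (median 64.3), without overlap (log2 fold change -0.28, SE 0.04, edgeR adjusted p = 7.91e-06). Med18 fell by 0.19 (edgeR adjusted p = 0.0271), a call lost in 9 of 26 alternative fits. Med11 rose by 0.25 (edgeR adjusted p = 0.000927) and Med8 by 0.10 (edgeR adjusted p = 0.0432), the latter a call lost in 18 of 26 alternative fits. Med6 and Med20 were not called, at 0.07 and 0.04.

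The 4 subunits that join head and tail, Med27 to Med30, did not move together. Med27 lay at 44.7 to 49.7 CPM (median 46.8) in Control gRNA and 18.5 to 26.5 CPM (median 22.5) in Tardbp gRNA. This was the deepest fall of all members, a log2 fold change of -1.07 (edgeR, SE 0.06, adjusted p = 2.35e-09), or 2.09-fold lower, and the groups were far apart. Med28 went the other way, from 131 to 142 CPM (median 137) to 150 to 189 CPM (median 171), without overlap (log2 fold change 0.31, SE 0.04, edgeR adjusted p = 5.88e-06). Med30 rose by 0.26 (SE 0.08, edgeR adjusted p = 0.00883), a call lost in 3 of 26 alternative fits. Med29 was not called at 0.08 (edgeR adjusted p = 0.265). Within each library, the ratio of Med27 to Med28 TPM was 0.539 to 0.871 in Control gRNA against 0.206 to 0.41 in Tardbp gRNA. Med27 and Polr2b were called, and lower, in all 26 alternative fits.

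In the middle, 1 of 9 members fell, 3 rose and 5 were not called, beside 23.3% of all tested genes called lower and 23.5% higher. Med1, the subunit that binds nuclear receptors, lay at 69.1 to 83.9 CPM (median 74.1) and 60.8 to 67.1 CPM (median 63.4). The groups did not overlap, though by a narrow margin (log2 fold change -0.24, SE 0.04, edgeR adjusted p = 0.000224). The Med1 call was lost with RNA concentration as a covariate (log2 fold change -0.27, edgeR adjusted p = 0.0692). Med10 rose from 95.3 to 102 CPM (median 97.8) to 119.5 to 146 CPM (median 130), without overlap (log2 fold change 0.41, SE 0.04, edgeR adjusted p = 4.44e-07). Med31 and Med7 rose by 0.33 (edgeR adjusted p = 0.00406) and 0.20 (edgeR adjusted p = 0.0270), with overlapping groups and, for Med7, a call lost in 12 of 26 alternative fits. Med4, Med9, Med19, Med21 and Med26 were not called, at log2 fold changes from -0.18 to 0.14. Med14, the scaffold, lay at 29.0 to 50.5 CPM (median 33.5) and 27.2 to 38.5 CPM (median 31.0) and was not called (log2 fold change -0.16, SE 0.11, edgeR adjusted p = 0.227). Its Control gRNA group was the most variable of all members, with a coefficient of variation of 19.8%.

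In the tail, which is met by activators, all 5 members had a negative log2 fold change, and 3 of 5 were called. Of all 16650 tested genes, 7643 had a negative log2 fold change and 23.3% were called lower. Med23 fell by 0.44 (SE 0.11, edgeR adjusted p = 0.00223) and Med16 by 0.41 (SE 0.07, edgeR adjusted p = 6.23e-05). Med24 lay at 89.2 to 106 CPM (median 91.9) and 69.6 to 82.7 CPM (median 74.5), without overlap (log2 fold change -0.31, SE 0.05, edgeR adjusted p = 5.55e-05). Med15 and Med25 were not called, at -0.03 and -0.09. Med15 was above 0 in 4 of the 26 alternative fits, whereas the other 4 tail genes were below 0 in all of them.

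The kinase module was split. Med13 lay at 8.58 to 15.5 CPM (median 11.3) in Control gRNA and 12.3 to 18.003 CPM (median 16.7) in Tardbp gRNA, the largest rise among the members (log2 fold change 0.49, SE 0.11, edgeR adjusted p = 0.00118). The groups overlapped, since Control gRNA replicate 1 reached 15.5 CPM and Tardbp gRNA replicate 3 only 12.3 CPM. The Med13 call was lost with RNA concentration as a covariate (log2 fold change 0.47, edgeR adjusted p = 0.194). It was also lost in replicates 1 to 3 alone (log2 fold change 0.24, edgeR adjusted p = 0.474). Med12, its partner in the module, lay at 32.1 to 52.2 CPM (median 45.9) and 26.8 to 43.9 CPM (median 39.2). The groups overlapped, and the call at a log2 fold change of -0.28 (edgeR, SE 0.11, adjusted p = 0.045) was lost in 14 of 26 alternative fits. The paralogs Med12l and Med13l were the least expressed members with Med13, at 0.801 and 1.97 TPM in Control gRNA, and had log2 fold changes of -0.50 (SE 0.17, edgeR adjusted p = 0.0215) and 0.17 (SE 0.09, edgeR adjusted p = 0.129). The ratio of Med13 to Med12 TPM was 0.119 to 0.303 in Control gRNA against 0.198 to 0.381 in Tardbp gRNA, and these ranges overlapped. Of the other kinase module genes, Ccnc, which encodes cyclin C, fell by 0.19 (SE 0.05, edgeR adjusted p = 0.00203), and Cdk8 and Cdk19 were not called.

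**Figure D4:**
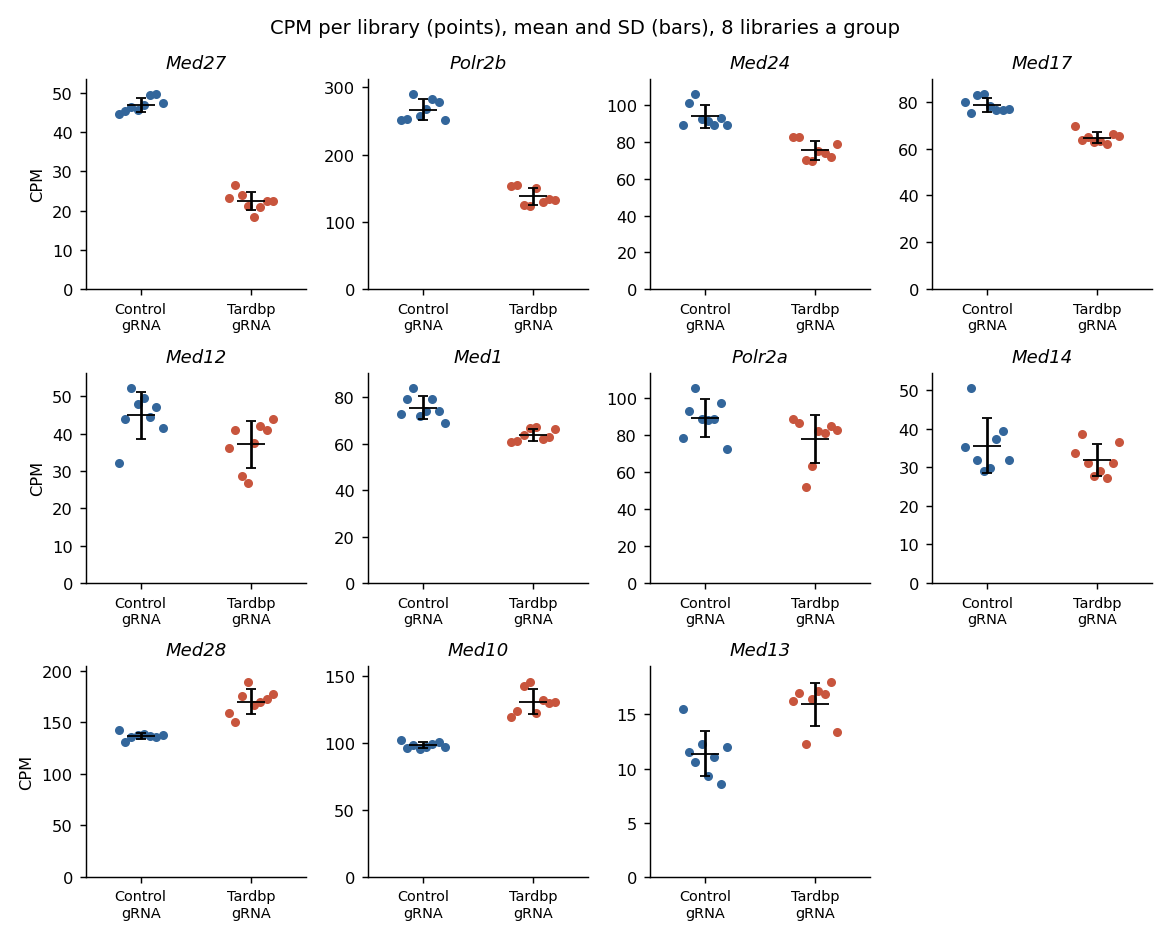
CPM per library (y axis, from 0) of the 11 members described with all values, with 1 point per library and the mean and SD as bars, Control gRNA in blue and Tardbp gRNA in red. Med27, Polr2b, Med24, Med17, Med1, Med28 and Med10 show groups without overlap, and Polr2a, Med12, Med13 and Med14 show groups that overlap.

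Direction went with the length of the RNA. Of the 18 members with a mean RNA length under 1500 bases, 9 rose and 1, Med27, fell. Of the 25 longer members, 4 rose and 10 fell. The median log2 fold change was 0.12 in the shorter and -0.16 in the longer members, and over all tested genes it was 0.17 and -0.02 on the same split. Among all shorter genes 31.0% were called higher and 9.03% lower, and among all longer genes 20.2% and 29.5%. Across the 43 members Spearman's rho of the log2 fold change with RNA length was -0.46, and across all 16650 genes it was -0.25. Both are descriptions across genes, which share their libraries. Med27, short and lower, lay against the trend. So did the longer members that rose, which were Med13, the longest member, Med28 (4100 bases, log2 fold change 0.31), Med7 and Polr2l.

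**Figure D5:**
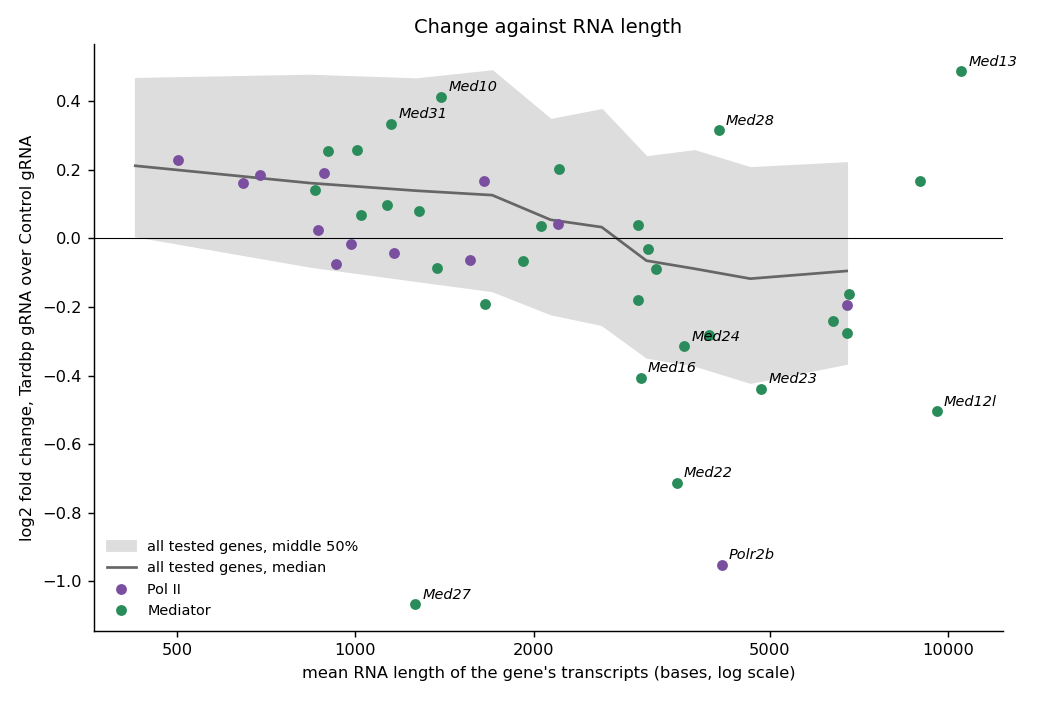
The log2 fold change (y axis) against the mean RNA length of each gene's transcripts in bases (x axis, log scale), with Pol II members in purple, Mediator members in green, and the median and middle 50% of all tested genes, in 10 groups of equal size, in grey. Med27 at -1.07, Polr2b at -0.95 and Med22 at -0.71 lie furthest below the grey band, and Med13, at 0.49, lies at the long end.

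Other genes of the transcription machinery, from lists made by role with earlier results of these data known, also moved both ways. Over all tested genes 23.3% were called lower and 23.5% higher, with a median log2 fold change of 0.05. Of 33 general transcription factor genes, which bring Pol II to the promoter, 12 fell and 9 rose, with a median of -0.07. Taf2 and Taf1, of TFIID, fell by 0.79 (edgeR adjusted p = 9.18e-08) and 0.72 (edgeR adjusted p = 1.46e-06), while Taf10 and Taf13, also of TFIID, rose by 0.54 (edgeR adjusted p = 0.0362) and 0.46 (edgeR adjusted p = 1.80e-06). Of 27 pausing and elongation genes 11 fell and 4 rose, with a median of -0.11. Ctr9, of the Paf1 complex, and Supt5, of DSIF, fell by 0.62 (edgeR adjusted p = 3.25e-08) and 0.57 (edgeR adjusted p = 6.12e-07). Hexim1, an inhibitor of P-TEFb, rose by 1.02 (edgeR adjusted p = 1.69e-06) and Cdk13 by 0.38 (edgeR adjusted p = 0.00120). Of 11 genes for polymerase assembly, import and removal of phosphates from the C-terminal domain, 5 fell and 1 rose. Rpap1, which takes part in assembly of the polymerase, fell by 0.61 (edgeR adjusted p = 4.36e-07), Rprd1b by 0.41 (edgeR adjusted p = 8.09e-06), and Ssu72, a phosphatase of the domain, rose by 0.19 (edgeR adjusted p = 0.000158).

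At the level of transcripts, 145 of the 232 annotated transcripts of the members were tested and 14 were called, 9 lower and 5 higher, with 16.6% of all tested transcripts called. With DESeq2 27 member transcripts were called (22.9% of all tested transcripts), and at an edgeR adjusted p under 0.01 there were 9 (9.4%). The falls of Polr2b and Med27 lay in their main coding transcripts. Polr2b-201 went from 254 to 291 CPM to 120 to 155 CPM (log2 fold change -0.99, SE 0.06, edgeR adjusted p = 1.41e-07) and Med27-201 from 44.4 to 50.8 CPM to 17.6 to 24.9 CPM (log2 fold change -1.14, SE 0.07, edgeR adjusted p = 1.41e-07), both without overlap. Of the 14, 12 were coding, and the other 2 were transcripts annotated with a retained intron, Med13l-203 (log2 fold change 1.32, SE 0.28, edgeR adjusted p = 0.00378) and Med15-218 (log2 fold change 0.93, SE 0.28, edgeR adjusted p = 0.0287). Both rose, while their genes were not called.

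The share of a transcript in its gene's counts was tested with limma for 137 transcripts of 35 members. No member, 0 of 137, met both criteria, an adjusted p under 0.05 and over 10 percentage points of difference, which 0.64% of all tested transcripts had. Without the minimum difference 2 passed, against 4.42% of all tested transcripts. Med27-210, a short retained-intron transcript, made up 0.0708 to 0.354% (median 0.243%) of Med27 counts in Control gRNA and 0.416 to 1.57% (median 0.988%) in Tardbp gRNA, without overlap (difference 0.767 points, SE 0.147, limma adjusted p = 0.00836). It rested on 3 to 16 counts per Control gRNA library and 8 to 28 per Tardbp gRNA library, and its own level was not called (log2 fold change 1.02, edgeR adjusted p = 0.0541). Med15-218 made up 1.47 to 3.55% and 3.51 to 7.61% (difference 2.54 points, SE 0.59, limma adjusted p = 0.0234). The largest difference was that of Med1-203, the longer Med1 transcript, at 60.5 to 81.1% (median 72.1%) and 46.4 to 70.5% (median 63.2%), with the groups overlapping (difference -10.7 points, SE 3.90, limma adjusted p = 0.159). Med1-202 went the other way by 9.67 points (SE 3.82, limma adjusted p = 0.197). Med15-217, Med16-201 and Med16-204 followed at -7.69, -6.82 and 6.70 points, and none of them passed. Of 34 retained-intron transcripts of members, 24 had a larger share in Tardbp gRNA, 70.6%, and of 8781 over all genes 73.3% had.

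The intron sequence of the 2 retained-intron transcripts that passed is shown because TDP-43 is known to bind UG-rich RNA. Capitals mark GTGTGT, searched on the transcript strand only. Med27-210 holds 2 stretches outside the exons of the other Med27 transcripts, at chr2:29496511-29496637 and chr2:29500327-29500548 on the plus strand (GRCm38), the latter just after exon 5 of Med27-201. Of Med15-218, 120 bases at chr16:17682771-17682890 on the minus strand are given, from an intron stretch of 884 bases.
Med27-210, before the exon: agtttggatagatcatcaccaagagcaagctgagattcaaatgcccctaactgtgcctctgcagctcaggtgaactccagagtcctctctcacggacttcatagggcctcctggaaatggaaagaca
Med27-210, after the exon: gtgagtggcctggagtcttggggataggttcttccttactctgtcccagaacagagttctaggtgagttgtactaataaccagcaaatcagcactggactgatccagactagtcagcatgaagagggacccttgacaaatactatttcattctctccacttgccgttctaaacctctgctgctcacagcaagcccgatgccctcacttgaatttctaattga
Med15-218: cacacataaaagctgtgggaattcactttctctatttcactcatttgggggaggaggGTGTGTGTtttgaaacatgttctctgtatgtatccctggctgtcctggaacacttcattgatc

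Neither stretch of Med27-210 held GTGTGT, which stood in 7.11% and 12.4% of retained-intron stretches of like length (0.8 to 1.2 times) over all genes. The stretch of Med15-218 held 2 overlapping matches, and 40.9% of stretches of like length held at least 1. Med13l-203, the other retained-intron transcript that rose, had no match in its longer stretch of 1486 bases, where 57.6% of like stretches held one. These are counts of letters and not of binding sites.

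A further set of Med27 transcripts starts downstream of the main first exon. Med27-205 and Med27-209, which begin at chr2:29378605 and chr2:29378514, had 6 and 7 counts in all Control gRNA libraries together and 71 and 85 in all Tardbp gRNA libraries. Counts above 0 were present in 2 and 1 of 8 Control gRNA libraries and in 6 and 6 of 8 Tardbp gRNA libraries. They were too low for the tested set, and without the filter the edgeR adjusted p was 0.0903 and 0.139.

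Percent spliced in (Psi), the inclusion of a node (an exon or part of one) from Whippet, was given as 1 pooled fraction per group, so it has no spread and no test. The deposited Psi values name the groups by letter only, and which letter is which guide was read from the study's text on 1 exon, so that every direction of Psi given here would turn if the letters were exchanged. Psi was listed for 505 nodes in 41 members, and 13 nodes in 7 genes differed by over 0.1, or 2.57% of member nodes against 4.70% of all nodes. All 23 listed nodes of Polr2b and all 6 of Med27 were core exons included at over 0.99 in both groups. The largest differences were at the first exon of Med12, where the node at chrX:101274030-101274228, a start site in the untranslated exon 1 of Med12-204, went from 0.448 to 0.213 and the next node from 0.537 to 0.754. Med23 showed the same form at its first exon, with the coding node at chr10:24870047-24870146 going from 0.450 to 0.271 and the one before it from 0.552 to 0.728. Tandem ends differed in Polr2k (0.883 to 0.733), Polr2j (0.350 to 0.210) and Med6 (0.915 to 0.805), each with the reverse at the neighbouring node, which was only 3 to 11 bases long. Of 401 core exons, 2 passed, both in Med12l, exon 33 of Med12l-206 (0.895 to 0.755) and exon 14 (0.258 to 0.145), in a gene with 0.801 TPM. An alternative last exon of Med14, exon 17 of Med14-201, went from 0.0980 to 0.224.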

How the data were processed

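Libraries had been prepared with the SMART-Seq v4 and Nextera XT kits, and reads were paired, 100 bases each. Groups came from the labels. The authors aligned reads with HISAT2 2.1.0 to the mm10 build and derived estimated counts of genes and transcripts from StringTie 2.1.0, without normalization; these deposited counts were whole. Psi fractions per group, deposited by the authors from Whippet, were used, and the columns of their own comparison, the difference and its probability, were not. Which Psi column is which group was taken from the study's text on 1 exon. Of both count files, 10 columns that match no sample were not used, and 0.0836 to 0.132% of counts lay on lines without a gene. The submitters' processing notes also name SAMtools 1.9, R 4.0.5 and DESeq2 1.30.1.

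Genes and transcripts were fitted by edgeR 4.0.16 in R 4.3.3 (quasi-likelihood, TMM, filterByExpr with minimum count 10, all 16 libraries, no covariate), with Benjamini-Hochberg adjustment over all features. Shares were tested with limma 3.58.1 in genes with several kept transcripts. Tests were two-sided and were checked on data of known answer. TPM came from transcript counts and annotated lengths and was not tested. Shares of length-scaled counts were tested with limma as an alternative. Names and coordinates are those of GENCODE M21 (GRCm38). DESeq2 1.42.0, other scalings, covariates (RNA concentration, sex letter), blocks and left-out libraries were alternatives. Values in full were given for 6 members picked by role (Polr2a, Polr2b, Med1, Med12, Med13, Med14) and for called members whose groups did not overlap in CPM. For transcripts these were the called shares or else the 5 largest differences, for nodes those over 0.1, and for lists up to 2 called genes each way. Members and lists were chosen with earlier results of these data known. A count is not a molecule, since PCR copies were counted. Recipient mice differ between libraries but cells were edited in pools, so p-values measure the spread between recipients. The level of a single red cell precursor marker is not reported here.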

Additional observations from a re-analysis of the deposited data

Results flagged for a closer look

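Control gRNA replicate 1 stood apart from the other 7 Control gRNA libraries in 3 small Pol II subunits. Polr2l was at 125 CPM there and at 97.5 to 109 CPM in the others, Polr2g was at 134 CPM against 115 to 122 CPM, and Polr2k was at 65.9 CPM against 49.8 to 55.5 CPM. In each case the gap to the next library was wide against the range of the group by Dixon's criterion. Of 86 groups of 8 libraries (43 members in both guides) 3 met it, and chance alone would give about 1 in 20. All 3 genes remained called, and higher in Tardbp gRNA, without this library.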

How the results depend on the processing

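With log2 RNA concentration as a covariate 11 members were called, 7 lower and 4 higher (16.2% of all tested genes). In replicates 1 to 3 alone 3 were called (Polr2b, Med27 and Med1), 3 lower and 0 higher (10.1% of all tested genes). Requiring a log2 fold change over 0.5 left 4, 4 lower (8.39% of all tested genes) and 0 higher (11.8%). The cause was not tested for the covariate or for replicates 1 to 3 alone, which hold fewer libraries. The last follows from the stricter rule itself. Leaving out 1 library gave 20 to 26 called members, 9 to 14 lower and 9 to 14 higher, beside 7265 to 7734 of all tested genes called. Member transcripts called were 27 with DESeq2, whose cause was not tested, and 9 at an adjusted p under 0.01. For transcript shares, length-scaled counts gave 1 call, Med13l-203 (difference 12.0 points, SE 3.11, limma adjusted p = 0.0397). In that fit 3 further shares had an adjusted p under 0.05 but too small a difference. These were Med27-201 (-4.88 points, limma adjusted p = 0.0025), Med15-218 (5.61 points, 0.0156) and Med27-210 (2.03 points, 0.00579). No share over all transcripts is given for that fit. In the main fit, no minimum difference gave 2. In the other alternatives the counts of calls stayed within 1.5 times. DESeq2 and RLE scaling called 24 members each, beside 8120 and 7795 of all 16650 tested genes. For the 11 members given in full, 264 of 286 alternative values kept direction and side of the threshold, 21 lost a call, 14 of these for Med12, 1 gained one, and none reversed. Upper-quartile scaling moved the median of all genes by 0.07 on the log2 scale and left 38 of 43 members with the same direction. Same-numbered libraries did not deviate together (correlations -0.0048 to 0.16, 2 of 8 libraries closest to their own number). With the replicate number as a block 22 members were called, 9 lower and 13 higher, beside 7645 of all 16650 tested genes. That block called 11 member transcripts, for which no share over all transcripts is given. Depth limited Med27-205, Med27-209 and Med27-210.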
